A study of Mus musculus with 6 samples.

Results

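The 30 genes described here mark macrophages that live in tissues, and they were chosen by name: every row of the deposited gene count table whose symbol is on the list was taken. All 30 symbols were found among the 52550 genes of the table, and all 30 had enough counts to be among the 19146 genes tested. The samples were inguinal white fat (iWAT), which lies under the skin of the groin, from C57BL/6 mice. In 1 group this fat was injected with an adeno-associated virus (AAV) that encodes mouse Hnrnpa2b1, a protein that binds RNA and takes part in splicing (AAV A2B1). The other group received an AAV described as a scrambled control in the sample labels and as AAV GFP in the series' design text. Each group held 3 RNA sequencing libraries, called here A2B1 1 to 3 and control 1 to 3. The labels give neither the promoter nor the serotype of the virus, and the age and sex of the mice are not given. They name adipocytes as the source and fat pads as the tissue. The macrophage, endothelial and fibroblast genes counted below show that RNA of other cells was present as well. In such bulk RNA, fewer macrophages and less RNA per macrophage cannot be told apart.

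Resident macrophages sit along vessels and between fat cells, where they take up dead cells, immune complexes, lipoproteins and iron carriers. They depend on the receptor Csf1r, which is switched on by the cytokines Csf1 and Il34. They carry Fc receptors for antibody, scavenger receptors and lectins, secrete the complement protein C1q, and recognise dying cells through the receptor kinases Mertk and Axl. Adipose tissue also recruits macrophages from blood monocytes, some of which become lipid-laden cells around dead adipocytes, with a gene programme of their own.

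Total counts lay between 72961324 and 86663359 per library, and 24909 to 26259 genes had at least 1 count. Hnrnpa2b1 reached 766 ± 20.6 CPM (SD, n = 3) with the A2B1 virus and 562 ± 40.1 CPM (SD, n = 3) with the control virus, where CPM is the read count relative to the normalised library size. Its adjusted p was 0.0654 in the quasi-likelihood test of edgeR. The libraries of a group were not alike in the other cell types they held. The summed level of 12 hepatocyte genes, chosen after the data were seen, was 14753 CPM in A2B1 1, 116.7 in A2B1 2, 1730 in A2B1 3, and 155.2 to 255.5 in controls. The summed level of 9 B cell genes was 363.8 CPM in control 1, 44.7 in control 2 and 4.74 in control 3, against 6.05 to 6.28 in the A2B1 libraries. The summed level of 9 T cell genes was 102.2 CPM in control 1 and 4.72 to 27.0 in the other libraries. None of these hepatocyte, B cell and T cell genes was at 0 in any library. Results are therefore given by library, and with libraries left out where that changes them.

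Most of the resident macrophage genes were lower in the A2B1 libraries than in controls, but none passed the test. The median log2 fold change of the 30 genes was -0.68, against 0.002 over all 19146 genes tested, and 28 of the 30 were negative, against 49.7% of all genes. At an adjusted p under 0.05 in edgeR, 0 of the 30 were called, where 1.82% of all genes were called in either direction and 1.33% were called lower. At an unadjusted p under 0.05, 5 were lower, namely Csf1r, Lyz2, Cd163, Folr2 and Axl, against 12.7% of all genes, and Cd5l was higher. In these 5 genes all A2B1 libraries lay below all controls, a separation shown by 15.5% of all genes. The share of the 30 genes with separated groups was thus close to the share in the whole table.

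DESeq2 called 5 of the 30 lower, where it called 8.29% of all genes lower, and it called Cd5l higher, where it called 6.96% higher. The 5 were Csf1r, Lyz2, Cd163, Folr2 and Laptm5. The voom method of limma called 0, with no member under its adjusted p of 0.05. Csf1r was the 1 member that passed the looser threshold of 0.1 in edgeR, which 4.17% of all genes passed as lower.

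The libraries of the A2B1 group differed from each other in the size of the deficit. The summed level of the 30 genes was 832 CPM in A2B1 1, 1280 in A2B1 2 and 641 in A2B1 3, and 1868, 1434 and 1261 CPM in controls 1, 2 and 3. A2B1 3 was below all controls for 27 genes and A2B1 1 for 24. A2B1 2 was below all controls for 6 genes and inside the control range for 22. Set against the control mean, the median log2 ratio over the genes was -0.86 in A2B1 1, -0.16 in A2B1 2 and -1.34 in A2B1 3. The controls were not alike either: control 1 was the highest of all 6 libraries for 22 genes, and its median log2 ratio was 0.36, against -0.11 and -0.29 in controls 2 and 3.

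**Figure D1:**
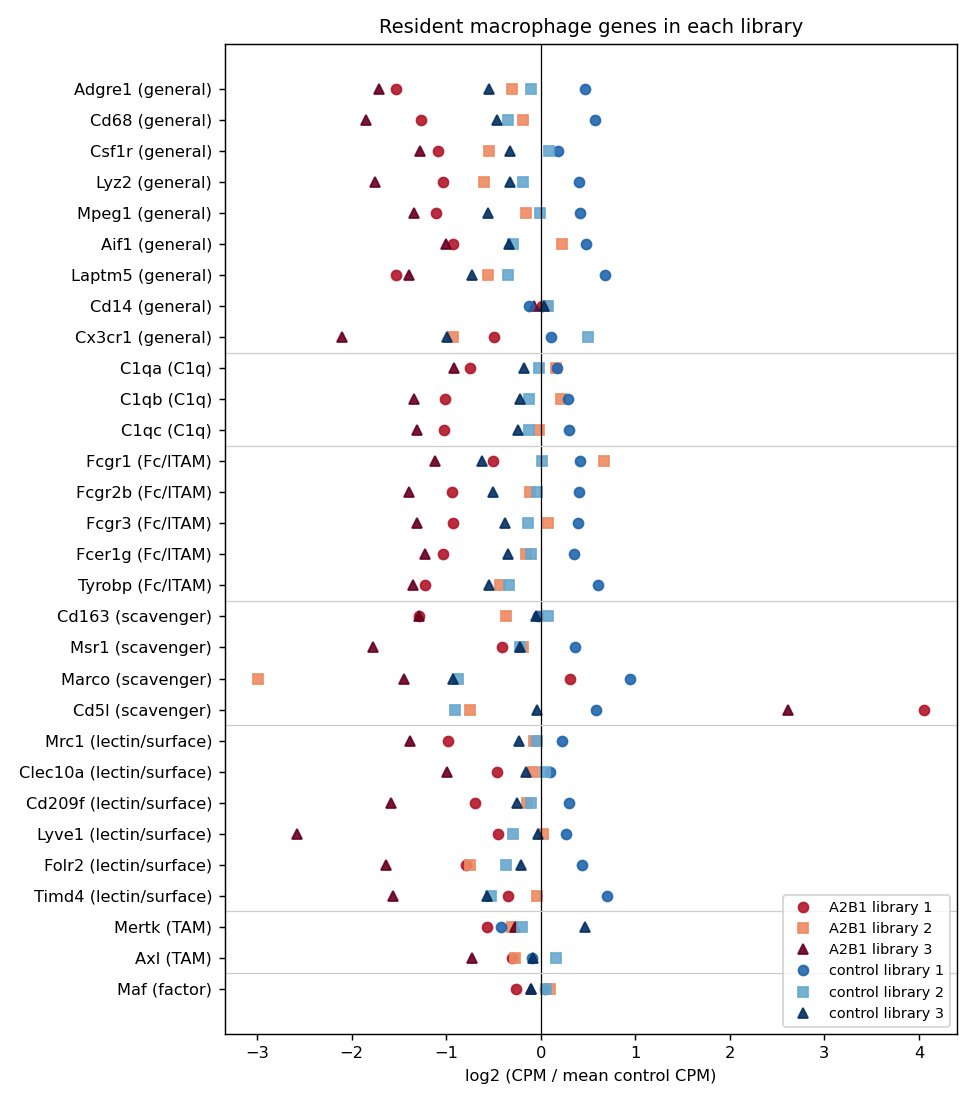
Level of each of the 30 genes in each library as log2 of the ratio to the mean of the 3 controls, both in CPM; each point is 1 library. A2B1 1 and A2B1 3 lie to the left for most genes, A2B1 2 lies among the controls for 22 genes, and Cd5l is the gene in which A2B1 1 and A2B1 3 lie far to the right.

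The median log2 fold change of the 30 genes was accordingly -1.11 without A2B1 2 and -0.13 with A2B1 2 as the only A2B1 library. Without control 1 it was -0.48. Without A2B1 2, Cd163 alone was called lower (adjusted p = 0.0338, edgeR), in a fit that called 0.0556% of 19770 genes lower. The 2 A2B1 libraries with low macrophage genes were also those with high hepatocyte genes, but not in the same order. A2B1 1 had the higher hepatocyte sum (14753 against 1730 CPM), and A2B1 3 the lower macrophage sum (641 against 832 CPM). The control with high macrophage genes was the one with high B and T cell genes. The part of those cell types in the macrophage values was not tested. With A2B1 1 and control 1 both left out, the median was -0.39, and 26 of 30 genes were negative.

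**Figure D2:**
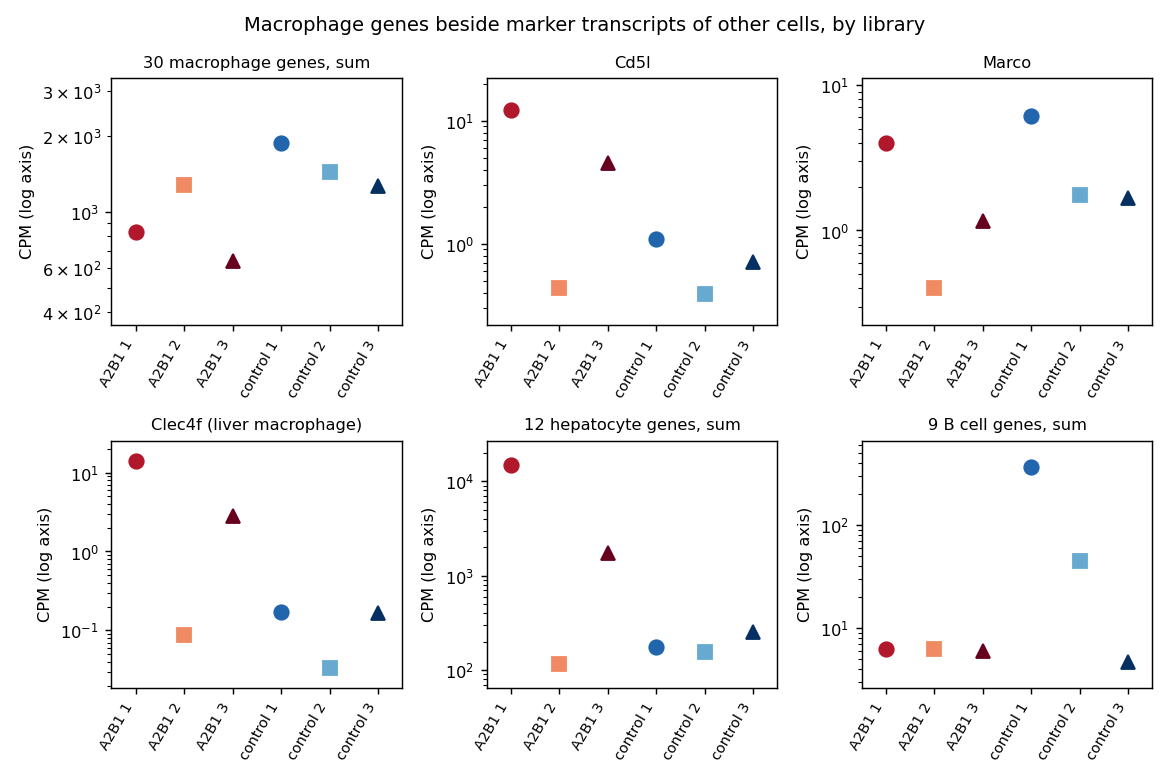
CPM in each library on log axes, for the sum of the 30 genes, for Cd5l, Marco and Clec4f, and for the sums of 12 hepatocyte and 9 B cell genes; each point is 1 library. Hepatocyte genes stand at 14753 CPM in A2B1 1 and 1730 in A2B1 3, and B cell genes at 363.8 CPM in control 1, while the sum of the 30 resident macrophage genes runs from 641 to 1868 CPM.

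Among the 9 general macrophage and myeloid markers, 8 were negative and the median log2 fold change was -0.94. Csf1r, the receptor that macrophages need to survive (chromosome 18, 61100598 to 61132149, plus strand; mm10, as are all positions here), had 44.9, 65.6 and 39.4 CPM in A2B1 1 to 3 and 109, 102 and 76.5 CPM in controls 1 to 3. All A2B1 values lay below all controls, A2B1 2 included. The fitted log2 fold change was -0.94 (SE 0.23), with an adjusted p of 0.0935 in edgeR and from 0.00214 to 0.522 over the 15 alternative fits, the highest being that with A2B1 2 as the only A2B1 library, as for each such range here. Exons of Csf1r overlap those of Hmgxb3 on the other strand by 873 bases, and how strand was treated in counting is not stated in the sources, so its count is uncertain.

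Lyz2, the lysozyme of myeloid cells (chromosome 10, 117277331 to 117282321, minus strand), had 178, 239 and 108 CPM in A2B1 libraries and 481, 318 and 289 CPM in controls. The groups did not overlap, and control 1 stood above the other controls. Its log2 fold change was -1.05 (SE 0.33; edgeR adjusted p = 0.153). Lyz2 shares much of its sequence with the neighbouring gene Lyz1, so reads may have been divided between them.

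Adgre1, which encodes F4/80, the classical surface marker of mouse macrophages, had 15.7, 36.5 and 13.9 CPM in A2B1 libraries and 62.6, 42.1 and 30.9 CPM in controls. A2B1 2 fell inside the control range and the other A2B1 libraries lay below it. The log2 fold change was -1.04 (SE 0.46; edgeR adjusted p = 0.235). Cd68, a glycoprotein of the lysosome membrane, had 15.1, 31.8 and 10.1 CPM against 54.0, 28.4 and 26.2 CPM, again with A2B1 2 inside the control range. Mpeg1, a pore-forming protein that acts on engulfed bacteria, had 46.5, 89.6 and 39.4 CPM against 133, 99.1 and 67.9 CPM. Their log2 fold changes were -0.93 (SE 0.51) and -0.77 (SE 0.39), and for both genes the groups overlapped.

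Laptm5, a lysosomal membrane protein of blood cells that lymphocytes also express, had 21.04, 41.3 and 23.1 CPM in A2B1 libraries and 97.6, 47.9 and 36.7 CPM in controls. The value of control 1, the library with high B cell genes, was the highest by far. The log2 fold change was -1.09 (SE 0.45), and its adjusted p was 0.213 in edgeR and, in the alternatives, from 0.0447 in DESeq2 to 0.751. Aif1, which encodes the actin-bundling protein Iba1, had a log2 fold change of -0.45 (SE 0.41) and overlapping groups. Cx3cr1, the receptor of fractalkine, had 0.538 to 1.64 CPM in A2B1 libraries and 1.16 to 3.27 in controls, a log2 fold change of -1.03 (SE 0.53) with overlapping groups.

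Cd14, the co-receptor for bacterial lipopolysaccharide, stood apart from the other general markers. It had 9.43, 9.75 and 8.90 CPM in A2B1 libraries and 8.59, 9.87 and 9.54 CPM in controls. The fitted log2 fold change was 0.00, with a 95% interval of -0.28 to 0.29, so a difference as large as that of Csf1r lies outside the interval. The sign of this value turns with the scaling, at -0.04 under library totals.

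C1qa, C1qb and C1qc encode the 3 chains of C1q, the first component of the classical complement pathway, and lie side by side on chromosome 4. C1qb (136880129 to 136886187, minus strand) had 38.4, 89.9 and 30.5 CPM in A2B1 libraries and 94.5, 71.0 and 66.5 CPM in controls. A2B1 2 was inside the control range and the other A2B1 libraries were below all of them. C1qa had 35.8, 67.2 and 31.9 CPM against 68.0, 59.2 and 53.3 CPM, and C1qc had 26.5, 53.1 and 21.8 CPM against 66.3, 49.6 and 45.5 CPM. The 3 genes thus shared 1 order across the A2B1 libraries, and control 1 was highest among controls for each. Their log2 fold changes were -0.42 (SE 0.30), -0.55 (SE 0.43) and -0.67 (SE 0.36) for C1qa, C1qb and C1qc, with edgeR adjusted p-values of 0.425, 0.477 and 0.311.

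The proportion of C1qc to C1qb varied less than their levels. The count ratio of C1qc to C1qb was 0.690, 0.591 and 0.714 in A2B1 libraries and 0.702, 0.698 and 0.684 in controls (exact two-sided permutation p = 0.8). The ratio of C1qa to C1qb varied more, from 0.720 to 1.05 over the 6 libraries. C1qb itself ranged from 30.5 to 94.5 CPM in the same libraries.

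Because macrophage genes of this kind are known to be bound by the factor PU.1 at purine-rich sites, the RefSeq promoter windows (build GRCm38.p6) were searched for the core GAGGAA on both strands, over the 250 bases before the start. Windows were found for 21 of the 30 genes, and 11 of them held the motif. By window it was present in 52.2% of 23, against 23.3% of 32851 windows of all genes. Among the 5 genes lower at an unadjusted edgeR p under 0.05, Axl held the motif. The windows of Lyz2, Cd163 and Folr2 did not hold it, and Csf1r had no window. A match of these letters is a description and does not show binding. The C1qb window is shown as the example from the C1q cluster and that of Cd5l as the example from the gene whose levels differ most from the rest. Both are among the windows that held the motif. Each is printed 5′ to 3′ on the strand of the gene, with the motif, or its reverse complement TTCCTC, in capitals.
C1qb, chr4:136886201-136886450, minus strand: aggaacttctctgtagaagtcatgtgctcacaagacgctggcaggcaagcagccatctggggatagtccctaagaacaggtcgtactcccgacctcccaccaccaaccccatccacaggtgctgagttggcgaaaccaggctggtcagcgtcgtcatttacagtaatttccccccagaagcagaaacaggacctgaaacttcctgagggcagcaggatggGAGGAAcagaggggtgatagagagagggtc
Cd5l, chr3:87357631-87357880, plus strand: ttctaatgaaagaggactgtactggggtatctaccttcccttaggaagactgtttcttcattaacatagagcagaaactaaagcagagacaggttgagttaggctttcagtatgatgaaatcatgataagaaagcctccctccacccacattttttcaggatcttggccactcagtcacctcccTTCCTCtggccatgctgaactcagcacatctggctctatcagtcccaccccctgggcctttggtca

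The 5 genes of Fc receptors and their signalling partners were all negative, with a median log2 fold change of -0.71. Tyrobp, the adaptor DAP12 that carries signals of Trem2 and other receptors, had 7.63, 13.2 and 7.03 CPM in A2B1 libraries and 27.2, 14.1 and 12.2 CPM in controls. A2B1 2 overlapped the controls and control 1 stood above the rest. Its log2 fold change was -0.94 (SE 0.39; edgeR adjusted p = 0.207). Fcer1g, the shared gamma chain of activating Fc receptors, had 5.26, 9.68 and 4.61 CPM against 13.8, 10.1 and 8.49 CPM, a log2 fold change of -0.72 (SE 0.33).

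Fcgr2b, the inhibitory Fc gamma receptor, which B cells also carry, had a log2 fold change of -0.71 (SE 0.39), and Fcgr3, a low-affinity activating receptor, one of -0.60 (SE 0.40). Both overlapped between groups. The exons of Fcgr2b overlap a predicted gene on the other strand. Fcgr1, the high-affinity receptor for IgG, had 3.78, 8.49 and 2.46 CPM in A2B1 libraries and 7.14, 5.41 and 3.49 CPM in controls. A2B1 2 was the highest of all 6 libraries, and the log2 fold change of -0.12 (SE 0.50) became 0.69 with A2B1 2 as the only A2B1 library.

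The balance between 2 of these receptors separated the groups. The count ratio of Fcgr1 to Fcgr3 was 0.214, 0.239 and 0.180 in A2B1 libraries and 0.160, 0.175 and 0.134 in controls, with no overlap. The exact two-sided permutation p was 0.1, the smallest that 3 against 3 libraries can give, before any correction for the 9 ratios computed. In all the other ratios computed the groups overlapped, with p from 0.2 to 0.8 in the same permutation test. The ratio of Fcgr1 to Fcgr3 does not depend on how the libraries are scaled.

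Of the 4 scavenger genes, Cd163 had the clearest separation. Cd163, the receptor for haptoglobin-haemoglobin complexes (chromosome 6, 124304656 to 124330527, plus strand), had 26.4, 49.9 and 26.4 CPM in A2B1 libraries and 63.2, 67.8 and 62.5 CPM in controls. The controls lay close together, at 64.5 ± 2.87 CPM (SD, n = 3), and all A2B1 libraries were below them. The fitted ratio was 1.88-fold lower, a log2 fold change of -0.91 (SE 0.26; edgeR adjusted p = 0.130; 0.0096 to 0.451 over the alternatives). With A2B1 2 as the only A2B1 library, the log2 fold change was -0.35.

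Msr1, the class A scavenger receptor for modified lipoproteins, had 6.40, 7.46 and 2.49 CPM in A2B1 libraries and 10.9, 7.28 and 7.32 CPM in controls, with overlapping groups. Marco, a related receptor for bacteria and particles that macrophages of lymph nodes and liver also express, had 3.97, 0.402 and 1.17 CPM against 6.16, 1.74 and 1.68 CPM. The highest values of Marco were those of control 1 and A2B1 1, and its log2 fold change of -0.79 (SE 0.93) became 0.11 without control 1.

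Cd5l had the 1 clearly positive fold change among the 30 genes. Cd5l, a secreted protein of the scavenger receptor cysteine-rich family that macrophages of liver and other organs release into blood (chromosome 3, 87357881 to 87371073, plus strand), had 846, 35 and 336 counts in A2B1 1 to 3 and 83, 35 and 60 counts in controls 1 to 3. In CPM these were 12.2, 0.440 and 4.52 against 1.10, 0.393 and 0.717. A2B1 1 and A2B1 3 were above all controls, while A2B1 2 lay inside the control range. The fitted log2 fold change was 2.96 (SE 1.14), and its adjusted p was 0.192 in edgeR and, in the alternatives, from 0.0101 in DESeq2 to 0.716. With A2B1 2 as the only A2B1 library, it was -0.72.

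The libraries with high Cd5l were those with the highest levels of hepatocyte genes, which had counts in every library. The plasma protein gene Alb had 430868 counts in A2B1 1 and 60063 in A2B1 3, against 5338 in A2B1 2 and 7669 to 12820 in controls. Clec4f, a lectin that in mice marks the resident macrophages of the liver, had 960, 7 and 212 counts in A2B1 libraries and 13, 3 and 14 in controls, so it had the same order of high libraries as Cd5l. Of the 5 liver macrophage genes listed after the data were seen, the others were not all so: Fcna had 15.7, 12.5 and 3.62 CPM against 17.3, 12.1 and 10.8 CPM. Of the 5, 3 had positive and 2 negative log2 fold changes. Their summed level was 139.0, 31.3 and 33.0 CPM in A2B1 1 to 3 and 95.3, 62.1 and 57.8 CPM in controls 1 to 3. The part of liver RNA in the values of Cd5l and of the other genes that the liver's macrophages express was not tested.

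All 6 lectins and surface markers of tissue-resident cells were negative, with a median log2 fold change of -0.67. Folr2, a folate receptor found on macrophages along vessels (chromosome 7, 101839988 to 101857194, minus strand), had 16.3, 16.8 and 9.10 CPM in A2B1 libraries and 38.3, 21.9 and 24.4 CPM in controls. The groups did not overlap, and A2B1 1 and A2B1 2 lay close together. The log2 fold change was -1.01 (SE 0.31; edgeR adjusted p = 0.145; 0.0145 to 0.557 over the alternatives). Its exons overlap those of Gm10602 on the other strand by 975 of 1546 bases, so the count is uncertain.

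Mrc1, the mannose receptor CD206, had 58.7, 110 and 44.5 CPM in A2B1 libraries and 136, 113 and 98.7 CPM in controls. A2B1 2 was inside the control range. Clec10a, a lectin for galactose-type sugars, and Cd209f, a lectin of the DC-SIGN family, had log2 fold changes of -0.46 (SE 0.23) and -0.69 (SE 0.36), with overlapping groups. Mrc1 had one of -0.70 (SE 0.35; edgeR adjusted p = 0.277).

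Lyve1, the hyaluronan receptor of perivascular macrophages and of lymphatic vessels, had 15.2, 21.2 and 3.48 CPM in A2B1 libraries and 25.1, 16.98 and 20.4 CPM in controls. A2B1 3 was far below all the others, and the fitted difference was -0.64 on the log2 scale (SE 0.62). The summed level of 7 lymphatic endothelial genes ran from 19.6 to 40.8 CPM in A2B1 libraries and 24.5 to 37.7 in controls, with A2B1 1 highest through Prox1, which hepatocytes also express. Timd4, a receptor for the phosphatidylserine of dying cells, had 2.62, 3.24 and 1.13 CPM against 5.43, 2.32 and 2.26 CPM. Its log2 fold change of -0.52 (SE 0.51) became 0.03 without control 1.

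Mertk and Axl are receptor kinases for the ligands Gas6 and Pros1, which bridge them to dying cells. Axl had 85.0, 86.9 and 63.1 CPM in A2B1 libraries and 98.2, 117 and 98.5 CPM in controls, with no overlap and a log2 fold change of -0.42 (SE 0.15; edgeR adjusted p = 0.167). Mertk had 26.5, 31.8 and 32.5 CPM against 29.3, 34.2 and 54.4 CPM, so that control 3, and not control 1, was its highest library. Both genes are also expressed outside macrophages, Axl in fibroblasts.

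Maf, a transcription factor of resident macrophages that other cells express too, had 50.2, 64.6 and 56.0 CPM in A2B1 libraries and 62.1, 62.6 and 56.1 CPM in controls. The log2 fold change was -0.08, with a 95% interval of -0.35 to 0.18. Exons of Gm15655 on the other strand overlap its own by 440 bases.

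**Figure D3:**
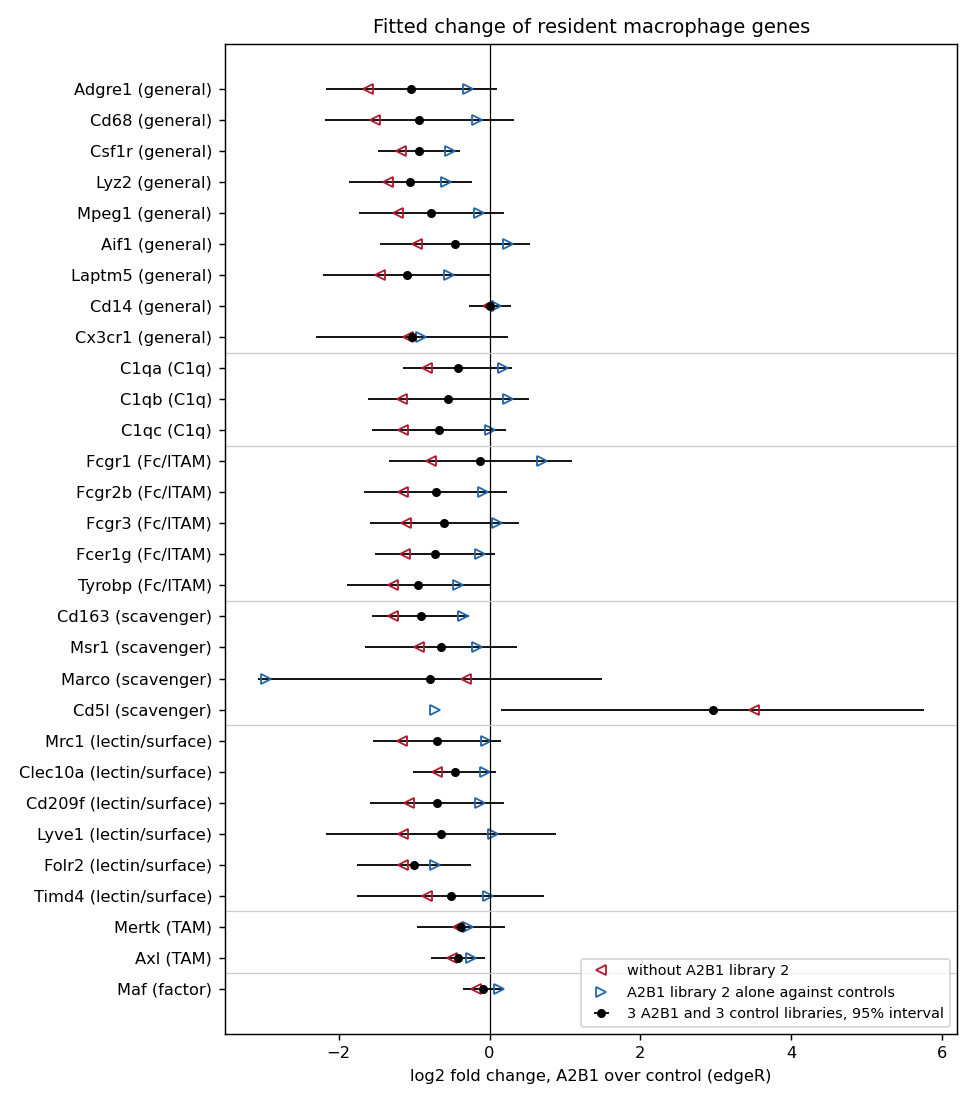
Log2 fold change of A2B1 against control for each of the 30 genes in the edgeR fit, as a black point with its 95% interval as a bar; red triangles are the fit without A2B1 2 and blue triangles the fit with A2B1 2 as the only A2B1 library. The values with all 6 libraries run from -1.09 for Laptm5 to 2.96 for Cd5l, and the intervals of Csf1r, Lyz2, Cd163, Folr2 and Axl lie below 0.

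Per length of transcript, the 30 genes covered a wide span of levels. In TPM, a level per transcript length computed here from counts and exon length, Lyz2 led the controls, with 855, 596 and 526 TPM in controls 1 to 3, followed by C1qb with 203, 161 and 146 and C1qa with 153, 141 and 123. C1qb and C1qa overlapped each other in their range over controls. Cd68, C1qc, Tyrobp and Mpeg1 followed, with overlapping ranges of 37.5 to 101 TPM in controls. Cd5l was the lowest in controls, at 0.476 to 1.26 TPM, next to Cx3cr1 at 0.616 to 1.79. In A2B1 1, Cd5l reached 11.9 TPM, above Adgre1 at 9.61 TPM in the same library, while in A2B1 2 it was 0.532 TPM against 27.7 for Adgre1.

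**Figure D4:**
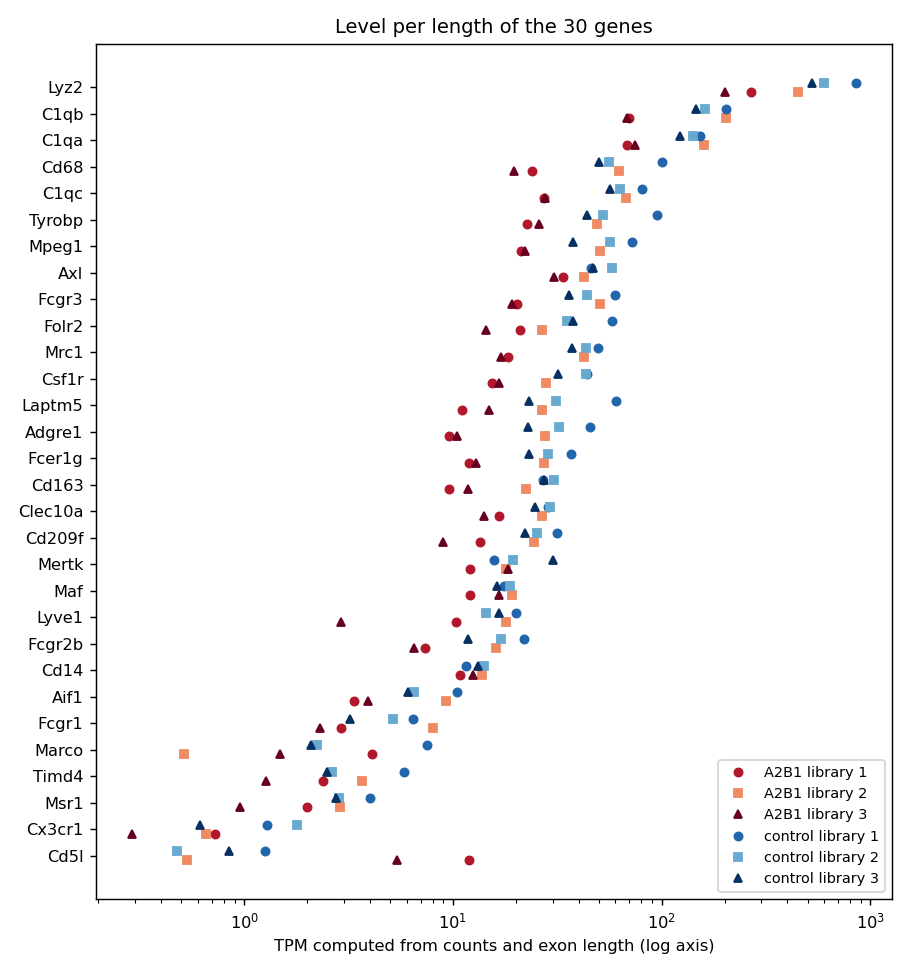
Level per transcript length of each gene in each library, in TPM on a log axis, ordered by the mean of the controls; each point is 1 library. Lyz2 heads the order with 526 to 855 TPM in controls and Cd5l ends it with 0.476 to 1.26, except that A2B1 1 and A2B1 3 hold Cd5l at 11.9 and 5.41 TPM.

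Each of the other 26 genes was also set against the mean log2 CPM of Adgre1, Csf1r, Cd68 and Mpeg1 in the same library. These 4 had log2 fold changes of -1.04, -0.94, -0.93 and -0.77, all below the median of -0.68 of the 30 genes. A gene that fell less than they did, such as Maf at -0.08, therefore stands higher on this scale without a rise of its own. On this scale 7 genes were higher in A2B1 libraries with no overlap between groups: Maf by 0.89, Fcgr1 by 0.72, C1qa by 0.48, Aif1 by 0.46, Fcgr3 by 0.29, Fcgr2b by 0.21 and Fcer1g by 0.20. The share of all genes with separated groups on this scale was not computed, so whether 7 of 26 is unusual is not known. The exact permutation p was 0.1 for each, the smallest possible here, and 0.371 after Benjamini-Hochberg adjustment over the 26 genes compared. With all 30 genes as the reference, the first 4 were higher by 0.55, 0.38, 0.14 and 0.12, while Fcgr3, Fcgr2b and Fcer1g turned to -0.05, -0.13 and -0.14. Cd163, Lyve1, Folr2 and Laptm5 differed by -0.055 to -0.004 against the 4 reference genes and by -0.40 to -0.34 against all 30, so their place on this scale depends on the reference.

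Genes around the 30 in the same pathways were also mostly lower, although few passed the test. Of 100 tested genes in lists of ligands, signalling partners, complement, other receptors, transcription factors and further resident genes, 76 were negative. Among all genes 49.7% were negative, and the median log2 fold change of the 100 was -0.42. In edgeR, 2 of the 100 were called lower and 0 higher, close to the 1.33% of all genes called lower. DESeq2 called 23 lower and 1 higher, against 8.29% and 6.96% of all genes. At an unadjusted p under 0.05 in edgeR, 25 were lower, against 12.7% of all genes, and 4 were higher. A2B1 libraries lay below all controls for 24 of the 100, against 15.5% of all genes.

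The ligands of Csf1r were not lower in the A2B1 libraries, and neither passed the test. Csf1 was at 43.5 ± 5.05 CPM (SD, n = 3) in A2B1 libraries and 39.4 ± 2.52 in controls, and Il34 at 19.2 ± 0.736 and 17.5 ± 3.03. Both had log2 fold changes close to 0, at 0.14 (SE 0.11) and 0.13 (SE 0.14).

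Mfge8, a secreted bridge between dying cells and phagocytes that adipose cells other than macrophages also make, was lower in the test. It had 155, 152 and 157 CPM in A2B1 libraries and 343, 296 and 321 CPM in controls. All A2B1 libraries were alike and far below the controls, a log2 fold change of -1.05 (SE 0.08; edgeR adjusted p = 0.0144). With 1 library left out its log2 fold change stayed between -1.10 and -0.99, and it was called in 3 of 6 such fits, those without a control library. It was the 1 gene called among 8 of the list of ligands and bridging molecules for uptake of dying cells.

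Among 9 other scavenger receptors, Colec12, a collectin that vascular cells also express, was the 1 called. It had 26.1, 21.8 and 17.2 CPM in A2B1 libraries and 48.8, 48.7 and 39.3 CPM in controls. The log2 fold change was -1.07 (SE 0.17; edgeR adjusted p = 0.0430). It was called in 0 of the 6 fits with 1 library left out, where the log2 fold change ran from -1.21 to -0.92 and the adjusted p from 0.0758 to 0.159.

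In the remaining lists of these pathways 0 genes were called in edgeR, and the genes with the smallest p are given. Of 14 Fc receptor and signalling genes, 4 had an unadjusted p under 0.05 in edgeR as lower, against 12.7% of all genes. Trem2, the lipid-sensing receptor that signals through Tyrobp, had 1.85, 3.90 and 2.04 CPM in A2B1 libraries and 16.5, 5.64 and 6.95 CPM in controls (log2 fold change -1.90, SE 0.51; edgeR adjusted p = 0.113). Inpp5d, the phosphatase SHIP1 that restrains Fc receptor signals, had a log2 fold change of -0.88 (SE 0.25).

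Of 15 complement genes, 9 were positive, and the median log2 fold change was 0.21. All A2B1 libraries lay below all controls for 2 of them and above all controls for 2. Of all genes, 15.5% lay below, and 2885 of 19146 lay above. Itgax, which encodes the CD11c chain of a complement receptor, had 2.53, 7.999 and 6.47 CPM in A2B1 libraries and 23.4, 12.5 and 13.2 CPM in controls. C3ar1, the receptor for the fragment C3a, had 7.96, 15.2 and 6.61 CPM against 29.7, 17.9 and 16.3 CPM. These were the 2 below all controls, with log2 fold changes of -1.53 (SE 0.47) and -1.10 (SE 0.39). The 2 above all controls, named after their values were seen, were C1s1, a protease of the C1 complex, and Cfd, the adipocyte-made factor D or adipsin. Cfd had 5416, 5641 and 5473 CPM in A2B1 libraries and 916, 1981 and 3618 CPM in controls, a log2 fold change of 1.34, with an edgeR adjusted p of 0.170. C1s1 had 458, 523 and 406 CPM against 149, 401 and 198 CPM, a log2 fold change of 0.89.

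Of 16 other lectins and Siglecs 15 were negative, against 49.7% of all genes. They were led by Cd33, a Siglec, at -1.33 (SE 0.29) and Clec7a, the receptor for fungal glucans, at -1.17 (SE 0.29). Of 14 macrophage transcription factors 11 were negative, with a median of -0.22. Mef2c had a log2 fold change of -0.92 (SE 0.21; edgeR adjusted p = 0.0821) and Cebpb one of 0.41 (SE 0.15; edgeR adjusted p = 0.175).

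Of 22 further genes of perivascular or resident macrophages, 18 were negative, against 49.7% of all genes. All A2B1 libraries lay below all controls for 8 of the 22, against 15.5% of all genes. Retnla, a secreted protein made by macrophages under interleukin-4 and also by adipose cells, had 69.1, 57.4 and 44.4 CPM in A2B1 libraries and 317, 170 and 156 CPM in controls. Ear2, a ribonuclease of the eosinophil family, had 2.48, 4.41 and 3.68 CPM against 18.0, 11.02 and 9.26 CPM. In both A2B1 2 lay below all controls. Their log2 fold changes were -1.91 (SE 0.32) and -1.85 (SE 0.33), with adjusted p-values of 0.0519 and 0.0529 in edgeR, just above the threshold.

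Genes of lipid-laden macrophages had a more negative median than the resident genes. Of 12 in the list, 11 were negative, against 49.7% of all genes, and 9 had all A2B1 libraries below all controls, against 15.5%. Trem2, Itgax and Clec7a, given above under other lists, are in this list too and are among the 9. The median log2 fold change was -1.16, and 2 genes were called lower, against 1.33% of all genes. Mmp12, the macrophage elastase, had 3.79, 7.40 and 5.67 CPM in A2B1 libraries and 42.0, 24.3 and 24.6 CPM in controls (log2 fold change -2.43, SE 0.33; edgeR adjusted p = 0.0335). Cd9, a tetraspanin that many adipose cells carry, was the other called gene, at -0.65 (SE 0.10; edgeR adjusted p = 0.0402). With 1 library left out each was called in 0 of 6 fits, with log2 fold changes of -2.68 to -2.12 for Mmp12 and -0.72 to -0.56 for Cd9. The exons of both overlap genes on the other strand, Mmp1b for Mmp12 and Gm26728 for Cd9. The difference between this list and the 30 genes was not tested.

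Among 8 monocyte genes, Ccr2, the chemokine receptor that brings monocytes into tissue, was the 1 called lower, with 11.2, 13.8 and 9.92 CPM in A2B1 libraries and 36.5, 27.9 and 23.9 CPM in controls. The log2 fold change was -1.34 (SE 0.20; edgeR adjusted p = 0.0375). With 1 library left out it was called in 0 of 6 fits, at -1.48 to -1.15. The other 7 were not called, where 1.33% of all genes were called lower, and the median over the 8 was -0.16. Of the 8 genes, 4 were positive and 4 negative. All A2B1 libraries lay below all controls for 1 of them, against 15.5% of all genes. No gene was called among 9 dendritic cell, 7 mast cell and 7 neutrophil genes, with medians of -0.58, -0.78 and 0.41. The smallest p-values in these lists belonged to Batf3 and Ccr7, to Kit and Tpsb2, and to S100a8 and S100a9, with log2 fold changes of -1.03 and -2.65, -1.13 and -1.06, and -2.28 and 1.79.

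The values of other tissue cells give the setting of these results. The 8 fibroblast and progenitor genes had a median log2 fold change of -0.26, with 0 called, and 7 blood endothelial genes one of -0.37, with 0 called. All A2B1 libraries lay below all controls for 2 of the 8 and for 4 of the 7, against 15.5% of all genes. Of 8 adipocyte genes, 5 were positive and 3 negative, and the median was 0.10. Lep and Cidec were called lower and 0 were called higher. All A2B1 libraries lay below all controls for 3 of the 8 and above all controls for 3. Of all 19146 genes, 2971 lay below and 2885 above. With 1 library left out, Lep was called in 2 of 6 fits and Cidec in 0. The 9 B cell genes had a median of -4.55, with 0 called in edgeR and 8 called lower in DESeq2, which called 8.29% of all genes lower. All A2B1 libraries lay below all controls for 1 of these 9. The 9 T cell genes had a median of -1.76. Control 1 held the highest value for each of these B and T cell genes.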

How the data were processed

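RNA from frozen fat was made into TruSeq libraries, per the labels' protocols. The authors deposited raw read counts, 1 whole number for each gene and library, per the file headers. The submitters' processing notes name Bowtie and mm10; no counting program, annotation or treatment of strand is named in the sources. No column of another sample was present (0).

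Genes kept by filterByExpr of edgeR 4.0.16 (minimum count 10, total 15; 19146 of 31438 with any count) were tested in R 4.3.3 with TMM scaling (factors 0.917 to 1.03), the robust quasi-likelihood F test, group as the only term, and Benjamini-Hochberg adjusted p under 0.05 called. SE is the log2 fold change over the square root of F. The biological coefficient of variation was 33.6%. Alternatives were DESeq2 1.42.0, limma 3.58.1 (voom with quality weights), other scalings and filters, and libraries left out; 2 fits without pairs of libraries were added after the data were seen. Other tests were exact permutation tests. TPM uses union exon length from GENCODE M21 (mm10), in which 52403 of 52550 gene IDs were found; promoters are RefSeq's (GRCm38.p6).

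The genes and lists were chosen with earlier results of these data known. Named were all 30 genes and, of the pathway, myeloid and adipocyte lists, up to 4 called genes with the smallest p, or else up to 2. For the lists of other cells not all such genes are named above. Among them Pvalb, in the skeletal muscle list, was called lower (log2 fold change -11.4, edgeR adjusted p = 0.0402). It was called in 0 of 6 fits with 1 library left out. The liver genes were added after the data were seen. Whether each library is a separate animal is not stated in the labels. The p-values therefore reflect spread among libraries only, and part of it may be technical. The most alike libraries of a group differed by 63.3 times counting noise (chi-square per degree of freedom), so none was a copy. Reads carry no molecular identifiers.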

Additional observations from a re-analysis of the deposited data

How the results depend on the processing

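The sign of the fold change held in all 13 planned fits for 25 of the 30 genes. Of the 30 genes 0 were called in the main fit; DESeq2 called 6, an adjusted p of 0.1 called 1, and fits with libraries left out called 0 to 1. Over all genes these counts were 349, 2919, 1270 and 0 to 57. The median log2 fold change of the 30 genes ran from -1.11 to -0.13 with libraries left out. Cd14 turned to -0.038 under library totals and under limma-voom and -0.0078 under upper-quartile factors. With libraries left out, fold changes that turned sign ranged from -0.058 to 0.083 for Cd14, -0.96 to 0.24 for Aif1, -0.83 to 0.18 for C1qa, -1.16 to 0.24 for C1qb, -1.15 to 0.0034 for C1qc, -0.77 to 0.69 for Fcgr1, -1.10 to 0.10 for Fcgr3, -1.15 to 0.049 for Lyve1, -0.83 to 0.032 for Timd4, -2.96 to 0.11 for Marco, -0.18 to 0.12 for Maf and -0.72 to 3.51 for Cd5l. Levels relative to Adgre1, Csf1r, Cd68 and Mpeg1 kept their sign in 11 of 26 genes. With all 30 genes as reference they turned to -0.057 for C1qb, -0.13 for C1qc, Fcgr2b and Msr1, -0.047 for Fcgr3, -0.14 for Fcer1g, -0.27 for Tyrobp, -0.16 for Mrc1 and -0.15 for Cd209f. With a library left out they ranged from -0.19 to 0.12 for Laptm5, -0.52 to 0.27 for Cx3cr1, -0.035 to 0.19 for Tyrobp, -0.25 to 0.18 for Cd163, -0.085 to 0.45 for Msr1, -1.06 to 1.06 for Marco, -0.39 to 0.53 for Lyve1 and -0.28 to 0.17 for Folr2. The cause was not tested. Fits without a library test fewer samples. No paired analysis was possible because the labels give no shared replicate numbers. Depth limits Cd5l, Cx3cr1, Marco and Timd4, each with fewer than 100 counts in at least 1 library.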
